A study of Caenorhabditis elegans with 2 samples.

Results

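Peaks of the C. elegans protein MADF-9 that lay on an autosome close to the annotated start of a protein-coding gene, called proximal peaks here, numbered 337 of the 1637 peaks of the set called between the replicates (20.6%). A peak was counted when its summit was not on X, was more than 250 bp from any tRNA gene, and fell between 250 bp upstream and 200 bp downstream of a transcript start of a protein-coding gene in the Ensembl annotation of WBcel235. The choice among these 1637 peaks used positions alone and no signal values. The set itself had already been thresholded for recurring between the replicates, and leaving out X and tRNA genes also bears on sequence. Together the proximal peaks touched the starts of 381 of 17242 autosomal protein-coding genes, a share of 2.21%.

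MADF-9 was mapped by ChIP-seq, which sequences the DNA that comes down with a protein, in whole L4 larvae with an antibody against GFP. Embryos from bleached adults had been held at the starved L1 stage, and the larvae were taken 48 hours after release from it. The only group was strain RW12324, in which the madf-9 locus on chromosome IV carries the CRISPR insertion st12324 with EGFP between a TY1 and a 3xFLAG tag, and it had 2 biological replicates. Chromatin was sonicated to 200 to 800 bp. The labels name 1 strain and no other condition, and no library without the tag or control library was analysed here, so pull-down at open or active promoters without MADF-9 cannot be told apart from its binding. Whole worms mix all tissues, so neither a cell type nor the share of worms or cells with a peak can be read from the values.

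The MADF domain is a DNA-binding fold of the Myb/SANT type, named after the Drosophila transcription factor Adf-1. A promoter holds the DNA just upstream of a gene at which transcription factors and RNA polymerase II gather. In C. elegans many annotated starts are the sites where a spliced leader RNA is joined to the transcript, and the polymerase then begins further upstream.

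Sequences of 81 bases centred on the summit, in windows that overlap no annotated exon, are shown first, for the words and shared runs to which the results return. They come from the RefSeq copy of WBcel235, and the capitals in the first 6 mark a recurring word of 8 bases. For the first pair it is AGACGCAG, called word group A, at the shared promoter of drr-2 and set-16 (chromosome III, 13643695 to 13643775, plus strand) and at that of F44E5.5 and F44E5.4 (chromosome II, 11759456 to 11759536, plus strand). For the next pair it is GAGTACAC, group B, at cyn-10 (chromosome II, 6913463 to 6913543, plus strand) and npp-8 (chromosome IV, 1595962 to 1596042, minus strand). For the third pair it is CGCCAGCA, which with AAACGCGC makes up group C, at his-37 (chromosome V, 9546974 to 9547054, minus strand) and Y55F3AR.2 (chromosome IV, 1094305 to 1094385, minus strand). In the pair from ubc-6 (chromosome II, 7478921 to 7479001, plus strand) and ruvb-1 (chromosome V, 9980837 to 9980917, plus strand) capitals mark runs of at least 20 bases that also lie at other proximal peaks. The last, from tasp-1 (chromosome III, 10759208 to 10759288, plus strand), is the peak with the highest signal, and it held none of the words.
drr-2 and set-16: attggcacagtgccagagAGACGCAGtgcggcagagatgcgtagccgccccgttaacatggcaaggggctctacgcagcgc
F44E5.5 and F44E5.4: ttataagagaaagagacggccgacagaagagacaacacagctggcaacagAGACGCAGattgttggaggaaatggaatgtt
cyn-10: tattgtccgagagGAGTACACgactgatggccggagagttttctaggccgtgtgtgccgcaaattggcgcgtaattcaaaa
npp-8: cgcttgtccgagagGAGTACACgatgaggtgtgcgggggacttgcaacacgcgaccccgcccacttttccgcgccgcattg
his-37: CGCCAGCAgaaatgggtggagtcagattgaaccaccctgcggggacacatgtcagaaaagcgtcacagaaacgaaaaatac
Y55F3AR.2: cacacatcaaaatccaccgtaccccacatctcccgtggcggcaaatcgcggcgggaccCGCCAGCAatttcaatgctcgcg
ubc-6: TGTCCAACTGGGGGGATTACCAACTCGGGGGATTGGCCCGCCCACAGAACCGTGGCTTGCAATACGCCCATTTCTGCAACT
ruvb-1: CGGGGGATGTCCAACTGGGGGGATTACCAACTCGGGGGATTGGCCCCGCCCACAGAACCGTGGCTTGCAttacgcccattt
tasp-1: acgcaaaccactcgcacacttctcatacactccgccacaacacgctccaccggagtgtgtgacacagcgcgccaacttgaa

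The peak signal is the authors' own measure of strength, whose scale no source gives. It had a median of 91.3 over the proximal peaks, with quartiles of 71.1 and 125 and extremes of 7.27 and 598. In the replicates' own lists of ranked regions the medians were 52.3 in replicate 1 and 42.9 in replicate 2. The autosomal promoter peaks that lay further out, beyond 250 and up to 1000 bp upstream, numbered 271 and had a median signal of 91.4, with 53.2 and 40.8 in the replicates. Of the proximal peaks, 177 were in the upper 50% of all peaks by signal, and 23 were among the 100 highest. By signal, the proximal peaks thus had a median like that of their neighbours further upstream, and they reached neither the lowest (2.01) nor the highest (1259) value of the whole set.

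The highest proximal peak was at tasp-1 (WBGene00010480), the worm counterpart of taspase, a protease that in mammals cuts MLL-type methyltransferases. Its peak spans 10759140 to 10759365 on chromosome III (ce11), its summit lay 59 bp upstream of the start, and its signals were 311 in replicate 1 and 282 in replicate 2. It ranked 3 in the whole set. The next was at cdc-48.1 (WBGene00007352), an AAA ATPase that pulls proteins out of complexes for degradation, with 188 and 219. That peak spans 10563478 to 10563645 on chromosome II, and its summit lay at -162 bp. At both genes the replicates lay close to each other.

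The following peaks differed more between the replicates. At atx-2 (WBGene00000231), an ataxin-2 relative that acts in RNA regulation, the summit lay 65 bp upstream (chromosome III, 10461249 to 10461406) and the signals were 210 and 131. Y17G9B.5 had 181 and 142 at 176 bp upstream. At tos-1, a gene known as a target of splicing, the signals were 213 and 94.9, relatively the widest gap among the 25 highest proximal peaks. The histone H4 gene his-37 had 171 and 140, and hsr-9, related to the DNA damage protein 53BP1, had 135 and 159. Histone genes exist in near-identical copies, and how reads that match several copies were placed is not given in the sources used here.

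All of the 25 highest proximal peaks had their summit upstream of the start and overlapped a peak of each replicate's own set. Their signals ran from 108 to 311 in replicate 1 and from 77.3 to 282 in replicate 2, so even the lowest of them was above the median proximal peak in both. They include the ribosomal protein genes rpl-12 (175 and 114) and rpl-7A (117 and 111, a promoter shared with the methyltransferase gene set-21), the hnRNP gene hrpa-1 (135 and 105), the translation factor gene iff-2 (133 and 106), the cytochrome c oxidase gene cox-5B (113 and 107) and the chaperone partner genes bag-1 (117 and 103), dnj-28 (122 and 106) and dnj-13 (119 and 101). The shared promoter of drr-2 and set-16, an MLL-type methyltransferase gene, had 139 and 120. F44E5.5 and F44E5.4, a divergent pair of Hsp70 genes that are close copies of each other, had 136 and 114. The deposited interval of 24 of the 25 was narrower than 260 bp, the width of 304 of the proximal peaks, and the 33 narrower intervals in all had a median signal of 242 against 86.8 for the others.

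**Figure D1:**
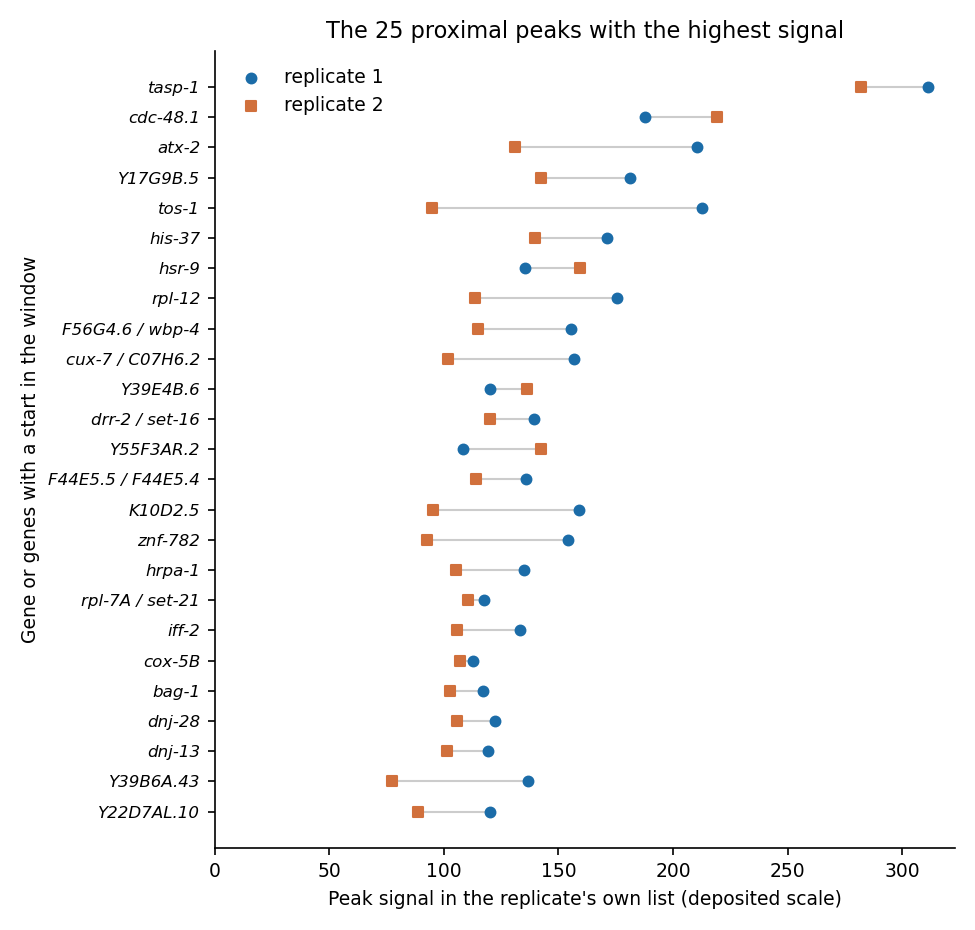
Signal of the 25 highest proximal peaks in replicate 1 (circles) and replicate 2 (squares), each from that replicate's own list of ranked regions on the authors' scale; rows are genes with a start in the window, ordered by the signal of the set called between the replicates. Replicate 1 was the higher in most rows, and tasp-1 (311 and 282) stood above all others in both.

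Summits were not spread evenly over the window. Of the 337, 274 lay upstream of the nearest start, 81.3% (95% Wilson interval 76.8 to 85.1), while upstream positions make up 55.4% of the window. Wilson intervals here and below cover counting error only. The median position was -113 bp, with quartiles at -171 and -23 bp. Read from each replicate's own regions, the median was -112 bp in replicate 1 and -110.5 bp in replicate 2, with 81.9% and 83.1% upstream. The number per 50 bp stayed between 45 and 66 from 250 bp upstream up to the start, fell to 24 in the first 50 bp of the transcript, and was 6 beyond 150 bp.

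Peaks upstream of the start had higher signals than those at or beyond it in both replicates. The 274 upstream peaks had a median signal of 102, with 57.5 in replicate 1 and 45.2 in replicate 2, and the 63 others had 74.8, with 40.9 and 35.8. Of the upstream peaks 42.3% (36.6 to 48.3) overlapped both replicates' own sets, and of the others 20.6% (12.5 to 32.2). The ranges overlapped widely, from 9.52 to 598 upstream and from 7.27 to 209 downstream. The highest of the latter was at F25H9.7 and F25H9.6, 7 bp downstream of a start, with 133 in replicate 1 and 73.2 in replicate 2. These differences are descriptions without a test, since peaks of a single pair of libraries are not replicates of each other.

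**Figure D2:**
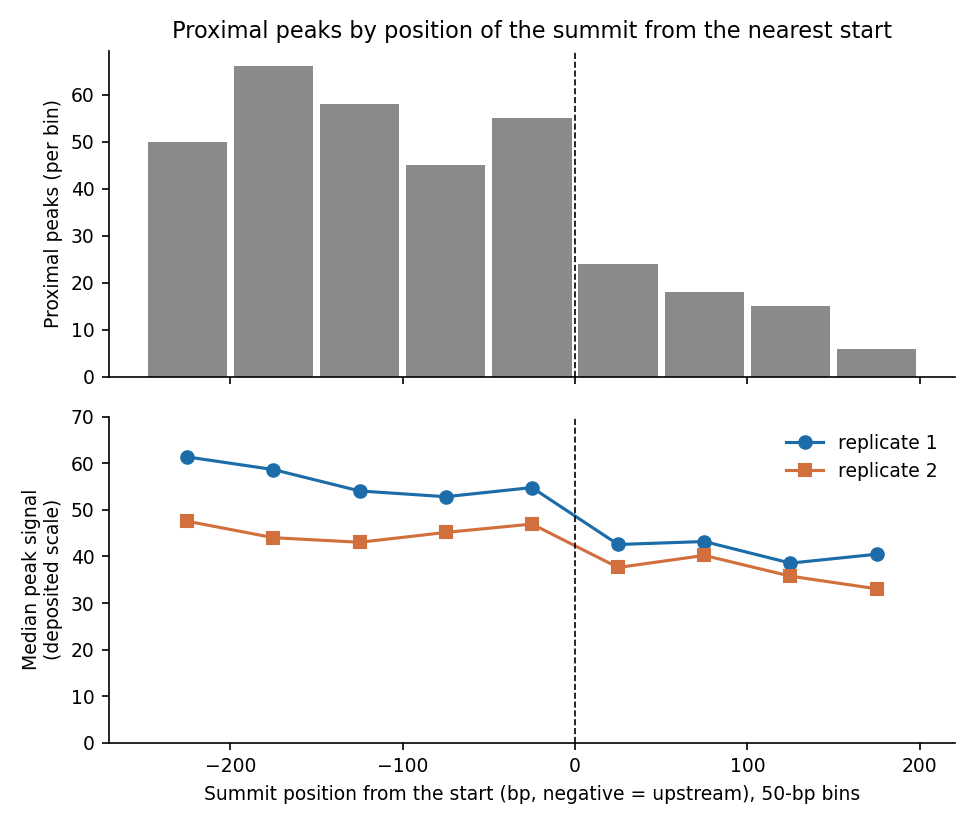
Proximal peaks per 50-bp bin of the summit's position from the nearest annotated start (top; the dashed line is the start) and the median signal of each bin in each replicate on the authors' scale (bottom). Counts fall from 55 to 24 at the start, and both replicates' medians are lower downstream of it.

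The annotation at the summits followed from the positions. Of the summits, 223 lay outside protein-coding genes and other exons, 41 in an intron of a protein-coding gene, 34 in a coding exon, 26 in a 5′ UTR exon and 13 in an exon of another gene. Of the 41 in introns, 34 were also upstream of the nearest start, so they lay within another transcript or another gene.

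At the edges of the window, the last peaks counted upstream were at the acetyltransferase gene hat-1, whose summit at -250 bp had a signal of 129 in the set, at epc-1 (-248 bp, 108) and at dld-1 (-247 bp, 81.1). The first left out were at mog-4 (609) and F26F2.7 (80.1), each 1 bp beyond the limit, and at imb-3 (-253 bp, 160). The mog-4 peak, at a gene for a splicing helicase, was thus stronger than any proximal peak. Downstream, sms-3 (200 bp, 83.4), pygl-1 (182 bp, 62.6) and cogc-3 (177 bp, 102) were the last counted, and F58D5.5 (225 bp, 65.2), F28F8.7 (227 bp, 74.3) and spd-5 (236 bp, 174) the first left out.

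The replicates gave similar but not equal values at the proximal peaks. A region of both replicates was found at 332 of them, and the 5 without a pair lacked one in replicate 2. These 5 lay at ekl-4 with rps-20, srp-7, spe-48 with Y51F10.11, pck-2 and amph-1, with 76.6, 32.1, 29.2, 40.0 and 43.9 in replicate 1. Replicate 1 had the higher value at 249 and replicate 2 at 83, with a median ratio of 1.19, which is close to the 1.18 over all peaks with a pair. Over these 332 peaks Spearman's rho was 0.640 and Pearson's r of log2 values 0.761, as descriptions: the peaks come from the same 2 libraries and had been selected for recurring between them. The summits of the paired regions were a median of 19.5 bp apart, and 199 of 332 pairs lay within 25 bp, 59.9%, against 48.5% further upstream and 53.7% in the whole set.

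Recurrence in each replicate's own thresholded set was near that of all peaks. Of the proximal peaks 195 overlapped replicate 1's set by at least 1 bp, 57.9% (52.5 to 63.02), where 54.8% of all peaks did, and 163 overlapped replicate 2's, 48.4% (43.1 to 53.7), where 46.0% did. Both sets held 129 of them, 38.3% (33.2 to 43.6) against 35.6% of all peaks, and neither held 108, 32.0% (27.3 to 37.2) against 34.8%. With the peaks cut into 4 bins of nearly equal size by signal, from the highest down, the share found in both was 90.6%, 52.4%, 5.95% and 3.57%. The signal and the own sets come from the same libraries, so a fall of this kind is largely built in. Most proximal peaks of the lower pair of bins were in no more than 1 of the own sets. Their medians were 42.7 and 36.7 in replicate 1 and 36.9 and 31.8 in replicate 2. Among peaks in the upper 50% of the proximal peaks, the ratio of replicate 1 to replicate 2 ran from 0.565 to 3.06. The largest were at rfc-4, of the clamp loader of DNA replication (84.1 and 27.5), epc-1 (86.0 and 30.1) and the SR protein gene rsp-1 (88.4 and 31.1), and the smallest at ints-4, of the Integrator complex (36.8 and 61.8), Y39G8B.2 (32.4 and 57.2) and tmem-107 (40.9 and 72.4).

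The 5 lowest peaks were at itsn-1 (signal 29.1), C34B4.2 (25.2), phip-1 (19.9), eri-5 (9.52) and Y95B8A.6 (7.27). Of these, C34B4.2, phip-1 and Y95B8A.6 each overlapped the interval of another, stronger proximal peak and shared its replicate regions, as did 8 peaks in 4 pairs in all. Their replicate values, such as 38.8 and 28.1 at Y95B8A.6, therefore belong to the pair.

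**Figure D3:**
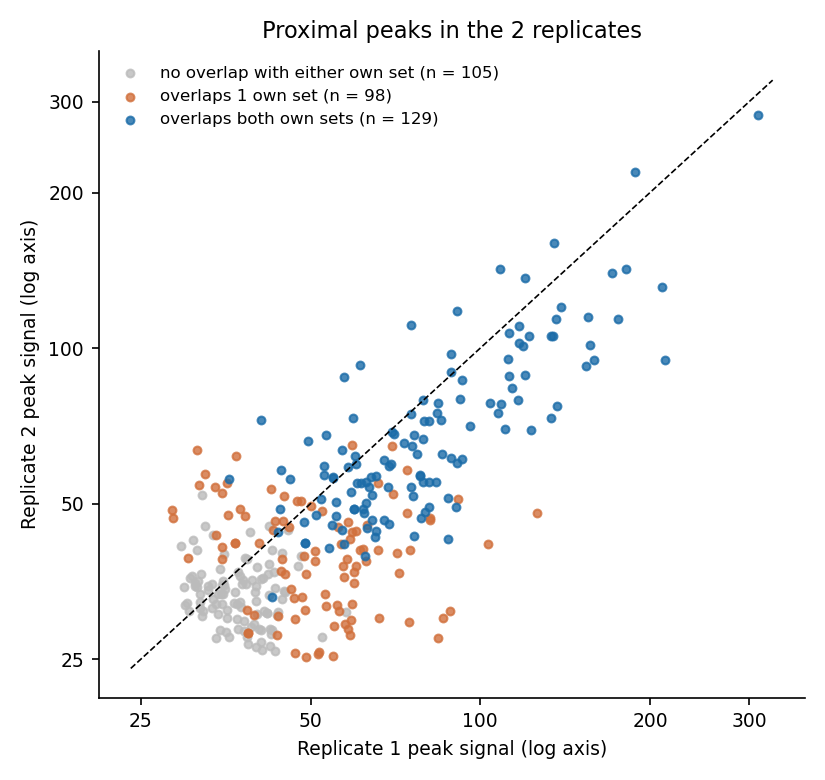
Signal of the 332 proximal peaks with a region in both replicates, replicate 1 against replicate 2, both axes logarithmic; colours show overlap with the replicates' own thresholded sets and the dashed line marks equal values. Of the 332, 249 points lie below the line, and the 129 peaks held by both own sets lie mostly at the higher values of both axes.

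Proximal peaks had starts of 2 genes in their window more often than a fixed point before each autosomal gene did. The starts of 2 genes fell in the window of 53 peaks, 15.7% (12.2 to 19.997). A point at the median proximal position before each of the 17242 autosomal genes had such neighbours for 8.63%. The units differ: each peak is counted once, whereas both genes of a pair can count among the points. The points also lie at a fixed distance from the outermost start, so the shares are not strictly alike. The genes were on opposite strands at 49 peaks, 14.5% (11.2 to 18.7) against 7.62%, and on the same strand at 4. In the narrower window from 150 bp upstream to 100 bp downstream the share fell to 8.87% (5.68 to 13.6), 18 of 203, and that of points at its median position, -51 bp, before each gene was 4.01%. The divergent promoters had a median signal of 105, with 59.0 and 47.0 in the replicates, and the peaks with 1 gene 88.8, with 49.0 and 41.5. The highest of the divergent ones were F56G4.6 with wbp-4 (155 and 115), cux-7 with C07H6.2 (157 and 102) and the 3 pairs named above. The peak itself does not say which of the genes, if either, it relates to.

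Conversely, 9 genes had 2 proximal peaks, at different starts or on both sides of one. At the Gq alpha gene egl-30 the peaks were 69 bp upstream of a start (112 and 95.2 in the replicates) and 104 bp downstream of one (53.0 and 33.4). The alpha tubulin gene tba-2 had peaks 184 bp (40.9 and 28.4) and 166 bp (91.0 and 59.9) upstream of different starts. At wdr-23 the values were 65.0 and 43.0 upstream and 42.4 and 26.6 downstream, and at the kinase gene mnk-1 they were 48.2 and 32.9 upstream and 38.1 and 29.6 downstream. The others were T02E1.2, tent-5 and, with the overlapping intervals, C34B4.2, Y95B8A.6 and kel-3.

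Chromosome III had proximal peaks at 3.45% of its protein-coding genes (95% interval 2.82 to 4.21), 91 of 2640, and chromosome V at 1.56% (1.25 to 1.94), 78 of 4994. Chromosomes I, II and IV had 2.50%, 2.17% and 1.98%. The middle of each chromosome, from 25 to 75% of its length, held 58.5% of the proximal peaks and 55.7% of autosomal genes. The ranked list behind the set holds 86867 regions. At 7441 autosomal genes, 43.2%, a summit of some ranked region fell in the same window. The share that position alone would give was not computed, so 43.2% does not show weak binding at promoters. The 7060 of these genes without a proximal peak had a median highest signal of 26.4.

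The genes were counted by class symbol, beside the 2.21% of all autosomal protein-coding genes with a proximal peak. Cytosolic ribosomal protein genes had 8 of 79 (10.1%, 5.22 to 18.7), and 11 more had a peak only further upstream. With replicate 1 left out, so that replicate 2's own set was read, there were 6 such genes, and with replicate 2 left out 5. All genes with a proximal peak fell as well, from 381 to 201 without replicate 1 and 254 without replicate 2. The list counts without a replicate, here and below, stand beside that smaller total. The 8 peaks ranged from 66.1 to 289 in signal. The third highest of them was at rps-12 (90.8 and 118 in the replicates, a peak shared with ska-3), while rps-22 had 37.2 and 28.7. Translation factors and tRNA synthetases had 7 of 64 (10.9%, 5.40 to 20.9) and 1 more further upstream, with the elongation factor genes eef-1G (126 and 48.0), eef-2 (78.1 and 56.8) and eef-1B.1 (70.1 and 52.1) at 20, 13 and 22 bp upstream of their starts. Translation genes numbered 3 without replicate 1 and 6 without replicate 2.

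Chaperone genes had 7 of 54 (13.0%, 6.42 to 24.4), of which 5 were dnj genes, for J-domain partners of Hsp70. The other 2 were the small heat shock genes hsp-16.2 and hsp-16.41, which share 1 weak divergent peak (32.2 and 31.1). This list takes only the symbols hsp, dnj and cct. The Hsp70 genes F44E5.5 and F44E5.4 and the partner gene bag-1, named above, therefore fall outside it. Chromatin genes had 7 of 48 (14.6%, 7.25 to 27.2): set-16 and set-21, the deacetylase genes hda-11 (87.6 and 42.8) and hda-6 (42.1 and 38.2), hat-1 (81.4 and 46.4), and the SWI/SNF genes swsn-3 (33.8 and 53.8) and swsn-6 (37.5 and 36.2). Set-21, hda-11, hda-6 and swsn-6 as well as set-16 shared their peak with a neighbouring gene. Leaving out either replicate gave 3 chaperone genes and 4 chromatin genes, while all genes with a proximal peak fell from 381 to 201 or 254.

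Oxidative phosphorylation had 4 of 35 genes (11.4%, 4.54 to 26.0), cox-5B, cox-6B (81.2 and 55.0), the ATP synthase gene atp-1 (77.3 and 62.4) and the cytochrome c gene cyc-2.1 (50.9 and 38.7). Kinesins and tubulins had 2 of 21 (9.52%, 2.65 to 28.9), tba-2 and tbb-1, the vacuolar ATPase 2 of 17 (11.8%, 3.29 to 34.3), vha-2 and vha-11, and the spliceosome 3 of 43 (6.98%, 2.40 to 18.6), rsp-1, rsp-6 and prp-40. These counts are small, and their intervals are wide. Without replicate 1 the counts were 1 for kinesins and tubulins, 1 for the vacuolar ATPase and 1 for the spliceosome, and without replicate 2 they were 2, 0 and 2. The nuclear pore had 2 of 26 (7.69%, 2.14 to 24.1), the proteasome 2 of 33 (6.06%, 1.68 to 19.6), the cell cycle list 2 of 44 (4.55%, 1.26 to 15.1) and mitochondrial ribosomal proteins 2 of 70 (2.86%, 0.787 to 9.83), with intervals that hold 2.21%. For mitochondrial ribosomal proteins the count was 1 without replicate 1 and 0 without replicate 2, and for the nuclear pore, the proteasome and the cell cycle list it was 1 without replicate 2. Of the cell cycle list the members were cdk-7 and cdc-48.1, whose product is known for protein degradation rather than for the cycle alone.

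Large families of genes used in particular tissues had few proximal peaks, with signals from 55.0 to 107, but most of their intervals hold 2.21%. Chemoreceptors had 1 of 1089 (0.0918%, 0.0162 to 0.518), srh-2 (45.1 and 36.5), and C-type lectins with detoxification enzymes 1 of 408 (0.245%, 0.0433 to 1.38), gst-9 (49.1 and 25.2). Both intervals lie below 2.21%, while those of the other lists of this paragraph hold it. Nuclear hormone receptors had 2 of 246 (0.813%, 0.223 to 2.92), nhr-47 (54.9 and 56.4) and nhr-256 (34.9 and 34.8). Neuropeptides had 1 of 106 (0.943%, 0.167 to 5.15), nlp-33, and the cuticle list 1 of 161 (0.621%, 0.110 to 3.43), dpy-11, which encodes a thioredoxin-like protein and not a collagen. At srh-2, gst-9, nlp-33 and dpy-11 the summit lay 12 to 144 bp downstream of the start. Without replicate 1 the counts for chemoreceptors, lectins with detoxification enzymes, neuropeptides and the cuticle list were 0, and without replicate 2 that for neuropeptides was 0 and that for nuclear hormone receptors 1. Major sperm proteins had 0 of 31, which allows a share of up to 9.68%.

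**Figure D4:**
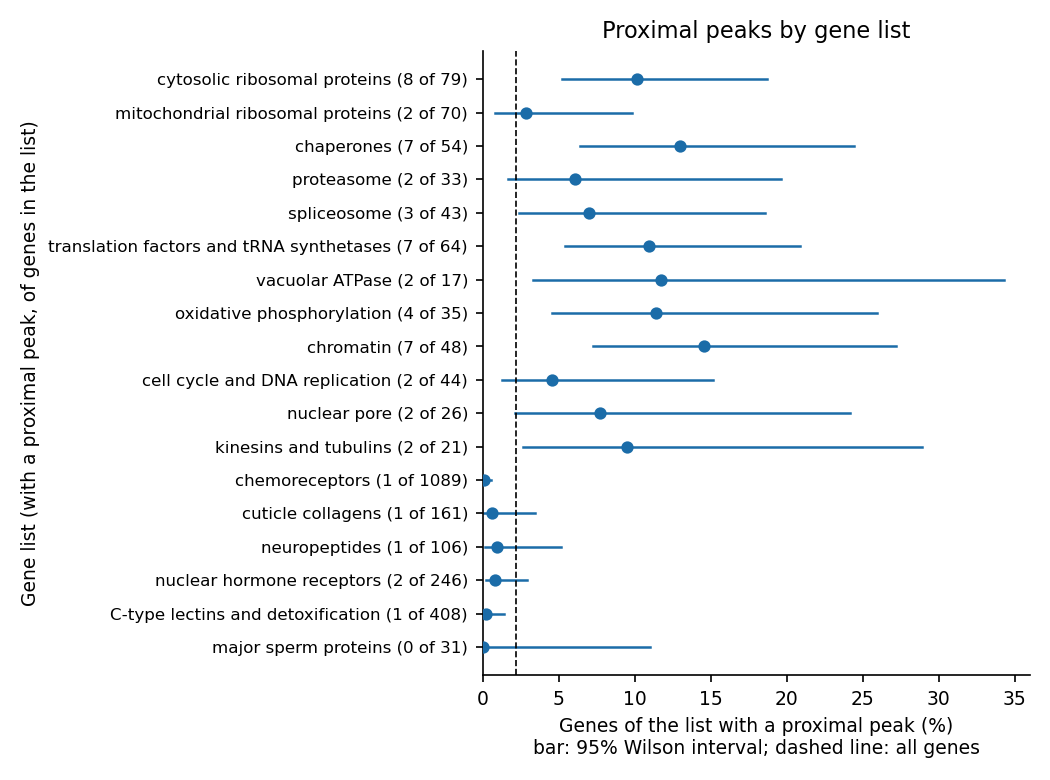
Share of the autosomal genes of each list that had a proximal peak, in percent, with its 95% Wilson interval; labels give the counts and the dashed line is the 2.21% of all autosomal protein-coding genes. Lists of broadly expressed genes such as chaperones (13.0%) lie to the right of the line and chemoreceptors (0.0918%) to its left. On either side the intervals of several lists cross it.

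The bases at the summits were richer in G and C than those beside them. The median GC content within 50 bp of the summit was 49.5%, against 35.6% in windows of the same length centred 200 bp away on both sides, and 313 of the 337 summits (92.9%) exceeded their own flanks. Peaks further upstream had 50.5% and 33.7%, those in autosomal gene bodies 49.5% and 39.1%, and all peaks of the set 50.5% and 36.1%. The excess was thus not particular to proximal peaks or to promoters. Of the AT-rich words searched, TTTGAA, on either strand, was within 50 bp of 21.4% of the summits (17.3 to 26.1) and in 26.4% and 24.6% of the flank windows, with intervals that overlap. TATAAA was within 50 bp of 4.15% of the summits (2.49 to 6.85) and in 11.6% and 11.9% of the flank windows, and a run of 8 T or A bases in 3.56% against 8.61% and 8.01%. GGGCGG stood at 7.42% (5.08 to 10.7) of summits and 2.97% and 2.08% of flanks, and CACGTG at 4.45% (2.72 to 7.21) and 1.19% and 1.48%. The GC content moves with all these shares, and its part in them was not tested. Over all peaks of the set TATAAA was at 4.03%, GGGCGG at 7.64% and CACGTG at 4.70%, near the proximal shares, while TTTGAA was at 13.0%. GAGAGA was at 18.4% (14.6 to 22.9) of proximal summits and in 8.31% and 6.53% of flank windows. It was at 21.0% of all peaks and at 34.3% of autosomal peaks outside genes and promoters.

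The 10 words of 8 bases with the largest excess at summits over flanks included AGACGCAG, GAGTACAC, CGCCAGCA and AAACGCGC. Of the others, GAGACGCA, AGAGACGC and GACGCAGA overlap AGACGCAG in their letters and GCGCCAGC overlaps CGCCAGCA, while ACTCCTCT and CTCCTCTC, read on the other strand, run into the start of GAGTACAC as in the cyn-10 sequence above. They were found in these same peaks, so their counts are descriptions. Group A, AGACGCAG or its complement CTGCGTCT, was within 50 bp of 35 summits, 10.4% (7.56 to 14.1), in 2 and 6 of the 337 windows on either flank, and in 1.07% of windows of the same length in the middle of all autosomal promoters. Group B, GAGTACAC or GTGTACTC, was at 22 summits, 6.53% (4.35 to 9.69), in 0 and 1 flank windows and 0.267% of promoters. Group C, CGCCAGCA or AAACGCGC on either strand, was at 35, 10.4% (7.56 to 14.1), in 1 and 1 flank windows and 0.499% of promoters. With the promoter windows centred on the proximal peaks' median position, -113 bp, the shares of promoters were 1.59% for group A, 0.406% for group B and 0.783% for group C. In all 90 peaks, 26.7%, held a word of at least 1 group, and 2 held words of more than 1. CTGAGCTA was within 50 bp of 23.9% of the summits near tRNA genes, which the rule leaves out. It was at 0 of 337 proximal summits, which allows up to 0.890%. Among the other autosomal peaks it was at 0 of 271 further upstream, 1 of 245 in gene bodies and 1 of 242 outside genes. Its low count is therefore not particular to the proximal peaks.

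Group A was also found in autosomal peaks away from promoters, and groups B and C had low shares in gene bodies. Group A was at 7.75% of autosomal peaks further upstream (5.12 to 11.6), 7.76% in gene bodies (5.02 to 11.8) and 11.6% outside genes (8.13 to 16.2). Group B was at 4.06% further upstream (2.28 to 7.12) and 0.408% in gene bodies (0.0721 to 2.28), and group C at 7.38% (4.83 to 11.1) and 0.408% (0.0721 to 2.28). Outside genes and promoters group B was at 2.07% (0.886 to 4.74) and group C at 0.826% (0.227 to 2.96). At the 48 peaks close to a start on X, group A was at 8.33% (3.29 to 19.6) and group C at 14.6% (7.25 to 27.2). Group B was at 0 of these 48, which allows up to 6.25%. The intervals of the proximal peaks and of the gene bodies do not overlap for groups B and C, and outside genes and promoters those of group C do not overlap while those of group B do. Words of groups B and C were chosen for their excess at the proximal summits, which favours their share there. These intervals therefore cannot show a difference between the parts, and the differences themselves were not tested. For all groups the intervals of the proximal peaks and of the peaks further upstream overlap.

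**Figure D5:**
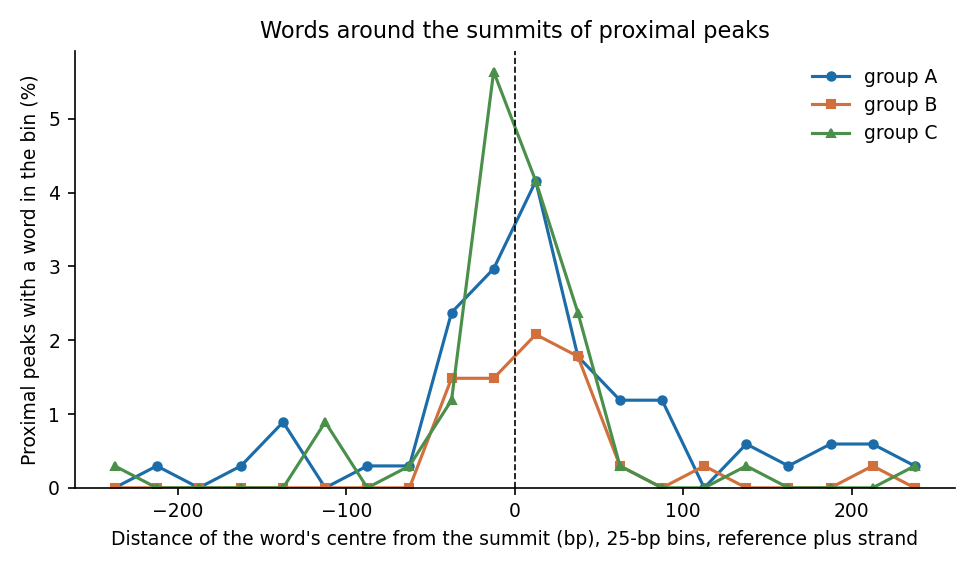
Share of the 337 proximal peaks with a word of group A, B or C whose centre lies in each 25-bp bin of distance from the summit, in percent, along the reference plus strand. Every group is highest in a bin next to the summit, and group C reaches 5.64% in the bin just before it.

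Words were counted only within 50 bp of the summit, so their nearness to it is in part fixed by that limit. Within it, the median distance of the nearest word's centre from the summit was 17.5 bp for group A, 23.5 bp for group B and 16.5 bp for group C. Group B read along the strand of the nearest gene at 5 peaks and along the other at 17, while groups A (15 and 20) and C (18 and 17) were divided about evenly. All 35 summits with group C lay upstream of the start, with a median of -134 bp, against 30 of 35 for group A and 19 of 22 for group B. The median signals with group A were 50.2 and 41.7 in the replicates, with group B 54.0 and 53.4, with group C 56.0 and 51.0, and without any of the words 51.04 and 41.8. Among the 25 highest peaks 7 held a word, a share near the 26.7% of all proximal peaks. Peaks without a word, such as tasp-1 and cdc-48.1, were thus the majority among the 25. They were also the majority among all proximal peaks, at 73.3%, so this was not particular to strong peaks.

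The strongest peaks with group A were drr-2 with set-16, F44E5.5 with F44E5.4, the zinc finger gene znf-782 (154 and 92.4), Y39B6A.43 (137 and 77.3) and ntl-11 (92.7 and 86.9). Those with group B were F56G4.6 with wbp-4, F25H9.7 with F25H9.6, W04C9.4 (117 and 79.5), Y73B6BL.29 (79.2 and 79.3) and lrpr-1 (79.3 and 72.4). For group C they were his-37, Y55F3AR.2 (108 and 142), eelo-2 (114 and 83.9), T07F10.3 (83.8 and 75.1) and C34C12.8 (84.2 and 78.3), which also held group A.

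A word alone did not mark a peak. Of the 5812 sites of AGACGCAG in the genome, X included, 125 lay within 50 bp of any summit of the set and 36 of a proximal one. Of 2612 sites of GAGTACAC the counts were 43 and 23. They were 42 and 23 of 1203 for CGCCAGCA, and 49 and 22 of 2297 for AAACGCGC. Counted by gene, 47 of 732 genes with group A in their window had a proximal peak, 6.42% (4.86 to 8.43), 26 of 226 with group B, 11.5% (7.97 to 16.3), and 47 of 411 with group C, 11.4% (8.71 to 14.9). Of the 15907 genes without any of the words 266 had one, 1.67% (1.48 to 1.88). The words were chosen in the same peaks, so these shares have no independent check.

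Some proximal peaks lay on copies of the same sequence. Within 50 bp of the summit, 34 peaks, 10.1%, shared a run of 20 bases or more with another proximal peak, and they linked into 10 families. With any peak of the set, 43 proximal peaks shared such a run. The share was not counted over all peaks or over promoters, so it cannot be called particular to proximal peaks. The largest had 9 peaks, at ubc-6, an E2 enzyme gene of the ubiquitin pathway, pqn-51, the AAA ATPase gene ruvb-1, cids-2, mmab-1, W03H9.2, ZK973.1, cacn-1 and phip-1, with median signals of 59.8 and 48.0 in the replicates. The ubc-6 peak had 111 and 69.8, and that of ruvb-1 62.2 and 48.0. The run held by most of them, 5 of 9, had 90 copies in the genome, of which 7 lay within 50 bp of any summit of the set. The second family had 6 peaks, all with group B, at F56G4.6, Y73B6BL.29, the cyclophilin gene cyn-10 (83.4 and 55.1), the nuclear pore gene npp-8 (79.2 and 55.0), F26G1.1 and zip-4. Its most common run had 39 copies, 13 of them near a summit.

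The other 8 families had 2 or 3 peaks each. Copies of the most common run near any summit were 4 of 5 for his-37 with K07C5.13, and 2 of 4 each for the family of ekl-4 with rps-20, rps-30 and rps-22, for rpl-7A with ints-4 and for Y38C1AA.12 with F10E9.5. They were 15 of 67 for dnj-28, Y62F5A.12 and nrde-2, and 5 of 24 for F44E7.4 with the 2 peaks of T02E1.2. For ntl-11 with Y73F8A.27 and for lrpr-1 with algn-14 the run has 2 copies in the genome, and both must lie near a summit because a family needs 2 peaks. All these counts include the copies at the family's own peaks, and the counts of 2 of 4 hold no others. Members of a family share sequence and are not independent of each other, and the treatment of reads that match several copies was not tested. Sequence written in lower case in the RefSeq genome marks repeats and simple sequence. It made up a mean of 21.8% of the bases around the proximal summits, against 36.7% at the same median position before all autosomal genes. Over all peaks of the set the mean was 17.4%, and at autosomal promoter peaks further upstream 17.6%. A share below 36.7% was thus not particular to proximal peaks.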

How the data were processed

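ChIP-seq of tagged MADF-9 in L4 larvae (2 biological replicates) was deposited as peak lists on ce11, per the labels. No source used here gives the peak caller, the aligner, their versions or the depth. Per the descriptions deposited with them, the lists are ranked or thresholded by the irreproducible discovery rate. The deposited score of a peak is that rate on a scaled range, and it was 830 to 1000 in the set used. The deposited signal is the caller's strength value per peak, on a scale not stated, and no read counts underlie the precision of a value here. Summit offsets are also the authors'. No control library was used here.

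Genes came from Ensembl release 115 and sequence from RefSeq, both WBcel235, the assembly of ce11; every peak ended within its chromosome. Replicate values are those of the region with the largest overlap (at least 1 bp) in that replicate's ranked list. Where 2 starts qualified, distance is to the nearest. Words were searched on both strands within 50 bp of the summit, in flanks 150 to 250 bp away and in the middle of the window at every autosomal gene. Shares carry 95% Wilson intervals (scipy 1.17.1, Python 3.11.15); the limit at a count of 0 is 3 counts. No p-value was computed: with 1 group there was no comparison of conditions. Position and word code was tested on simulated data.

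The peaks, lists and tests were chosen with earlier results of these data known. Named genes are the 25 highest and 5 lowest peaks, up to 3 of each list (more where counts were small), the peaks at the window's edges, the extreme replicate ratios, the 5 highest divergent promoters and genes with 2 peaks. Word groups B and C and the peaks named for each group, the families, the narrow intervals and the printed sequences were chosen after their values were seen. Alternatives were the pooled set, score 1000, the upper 50% by signal, each replicate alone, a narrower window, other starts, other tRNA distances, other word rules and a stricter overlap.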

Additional observations from a re-analysis of the deposited data

How the results depend on the processing

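No paired analysis was possible because there was 1 group, and no value has a test. Of 93 alternative values for the main quantities 63 stayed within the replicate spread, interval or 1.5-fold, and 30 did not. With the upper 50% of peaks by signal there were 177 proximal peaks, a median signal of 123, a median position of -127 bp, 91.5% upstream, 20.3% with 2 genes and 213 genes. The window from 150 bp upstream to 100 bp downstream gave 203 peaks, 219 genes, a median of -51 bp, a signal ratio to peaks further upstream of 0.946 (1.000 in the report's setting), 8.87% with 2 genes and 48.5% GC. A score of 1000 gave a median signal of 107 and 50.5% GC, also the GC of the upper 50%. The pooled set gave a ratio of 1.06, the outermost start a median of -124.5 bp, GACGCA in place of AGACGCAG 20.2%, and an overlap of 50% of both intervals 42.7% in replicate 2's set. Leaving out a replicate gave 173 to 220 peaks, 201 to 254 genes, median signals of 56.6 to 62.6, ratios of 0.915 to 0.988, medians of -129 to -115 bp, 86.4 to 87.3% upstream and 50.5% GC in both. The cause was not tested.

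Without a replicate the list counts, chosen as an addition after seeing the data, fell from 7 to 3 for chaperones in either case, from 7 to 4 for chromatin and from 8 to 5 or 6 for ribosomal proteins. All genes with a proximal peak fell from 381 as well, to 201 without replicate 1 and 254 without replicate 2. Word windows moved to the median position held AGACGCAG at 1.59% of genes, GAGTACAC at 0.406% and AAACGCGC at 0.638%. Depth is unknown, so weak peaks cannot be told from absent ones.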
